A study of Homo sapiens with 3 samples.

Results

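The 34 genes described here encode glucose transporters, the enzymes of glycolysis, lactate dehydrogenases and lactate transporters, and HIF1A with genes that respond to it. The rule that picks them is a list of names, drawn up with earlier results of these data known, and they were found by Entrez identifier among the 25702 genes of the count tables. Molm13, a human acute myeloid leukemia cell line with an internal tandem duplication in FLT3, was grown in RPMI with 10% FBS and treated for 6 h with the vehicle DMSO, with 50 nM pyrvinium or with 100 nM pyrvinium. Poly(A) RNA was sequenced in 1 library per condition, so each condition rests on a single culture of a single line and no difference below has a replicate check. The 3 libraries held 22677038 to 24075123 counts. The 10 myeloid and leukemia markers examined had 116 to 40424 counts in every library, and the 19 markers of T, B, erythroid, epithelial and stromal cells had 0 to 26.

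Glycolysis splits glucose into pyruvate in the cytosol and yields ATP without oxygen. Lactate dehydrogenase then turns pyruvate into lactate, which leaves the cell through monocarboxylate transporters. When oxygen is low, prolyl hydroxylases of the EGLN family no longer mark the HIF1A protein for destruction, and HIF1A switches on many glycolytic genes together with genes of blood vessel growth, collagen modification and mitophagy. Pyrvinium is an anthelmintic that gathers in mitochondria, so a comparison of the glycolytic steps with the hypoxia genes was of interest. HIF1A itself is regulated mainly as a protein, which these data do not measure, and the oxygen level of the cultures is not given in the sources used here.

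HIF binds DNA at a short core, ACGTG or GCGTG, and the stretches before the starts of 5 of the genes are shown because LDHA, P4HA1 and BNIP3 were lower after pyrvinium, HK2 was higher, and ANKRD37 is a hypoxia marker that missed the test. Each is the 250 bases before the transcription start in RefSeq on GRCh38.p14, read 5′ to 3′ on the strand of the gene, with every match to either core on either strand in capitals. The LDHA stretch is chr11:18394313-18394562 (plus strand), that of P4HA1 chr10:73096867-73097116 (minus), that of ANKRD37 chr4:185396591-185396840 (plus), that of BNIP3 chr10:131981924-131982173 (minus) and that of HK2 chr2:74833877-74834126 (plus).
LDHA: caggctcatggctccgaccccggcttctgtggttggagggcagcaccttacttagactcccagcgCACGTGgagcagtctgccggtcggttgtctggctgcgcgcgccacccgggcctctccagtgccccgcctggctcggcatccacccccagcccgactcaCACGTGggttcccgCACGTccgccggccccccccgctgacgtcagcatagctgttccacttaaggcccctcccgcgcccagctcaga
P4HA1: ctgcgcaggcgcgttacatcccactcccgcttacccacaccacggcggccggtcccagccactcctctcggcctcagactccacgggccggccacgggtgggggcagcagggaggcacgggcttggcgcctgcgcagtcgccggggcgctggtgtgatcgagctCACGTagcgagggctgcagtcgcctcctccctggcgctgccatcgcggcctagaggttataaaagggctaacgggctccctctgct
ANKRD37: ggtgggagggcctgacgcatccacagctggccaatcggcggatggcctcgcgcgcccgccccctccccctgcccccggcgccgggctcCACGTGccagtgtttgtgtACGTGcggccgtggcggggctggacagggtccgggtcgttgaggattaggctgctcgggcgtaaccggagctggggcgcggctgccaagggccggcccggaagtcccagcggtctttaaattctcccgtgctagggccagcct
BNIP3: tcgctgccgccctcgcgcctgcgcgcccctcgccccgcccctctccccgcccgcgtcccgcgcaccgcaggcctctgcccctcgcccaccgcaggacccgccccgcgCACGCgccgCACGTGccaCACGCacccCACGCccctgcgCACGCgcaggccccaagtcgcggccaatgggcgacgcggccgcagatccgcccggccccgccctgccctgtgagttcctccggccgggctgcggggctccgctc
HK2: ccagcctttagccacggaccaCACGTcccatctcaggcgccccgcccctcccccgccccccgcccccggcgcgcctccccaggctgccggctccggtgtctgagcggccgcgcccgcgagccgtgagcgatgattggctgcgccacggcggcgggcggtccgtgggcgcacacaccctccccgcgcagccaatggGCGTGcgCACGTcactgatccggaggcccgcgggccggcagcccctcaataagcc

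The LDHA stretch held 3 separate matches, from 185, 87 and 73 bases before the start, and 2 of them read CACGTG, which matches ACGTG on both strands and is also the E-box that MYC and related factors read. BNIP3 held 5, spread between 143 and 100 bases before the start, ANKRD37 held 2 and P4HA1 held 1. HK2 held 3. The windows of SLC16A3, PGAM1 and PFKM, also lower at 100 nM by a log2 ratio of at least 0.32 in size, held 0 matches. The stretches shown therefore do not stand for all the lower genes. A window was found for 29 of the 34 genes, and none for SLC2A3, PFKFB2, SLC16A1, BNIP3L and VEGFA. Where RefSeq gives several starts, the first in the table was used. Either core stood in 18 of the 29 windows (62.1%), near the 58.4% of the windows of the genes tested. ACGTG stood in 12 of the 29 windows (41.4%), in 24.0% of the windows of the genes tested and in 18.7% of all 27305 windows. GCGTG stood in 10 of the 29 (34.5%), against 46.3% of the windows of the genes tested. TGATGNAA, a form of the element that ATF4 binds, stood in 1 of the 29, that of HK1, and in 1.37% of the windows of the genes tested. A match is a run of letters, not a measured binding site.

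The genes differed in level over more than 4 orders of magnitude. Levels between genes are given as RPKM, that is, reads per kilobase of merged exons relative to library size, with library sizes scaled by TMM, a method that assumes most genes do not change. In the DMSO library GAPDH, which oxidises glyceraldehyde phosphate, was highest at 2680.5 RPKM, followed by the enolase ENO1 at 1554 and the lactate dehydrogenase subunits LDHB at 1091 and LDHA at 638. ALDOA, PKM, PGAM1, PGK1 and TPI1 lay between 387 and 127 RPKM. The first and committed steps were lower, with HK2 at 29.1, PFKL at 60.1 and PFKP at 55.9 RPKM. The hypoxia genes between 3.42 for ANKRD37 and 21.2 for KDM3A, with EGLN3 at 0. The 10 highest genes kept their order in all 3 libraries. VEGFA moved from position 20 in DMSO to 16 at 50 nM and 15 at 100 nM.

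**Figure D1:**
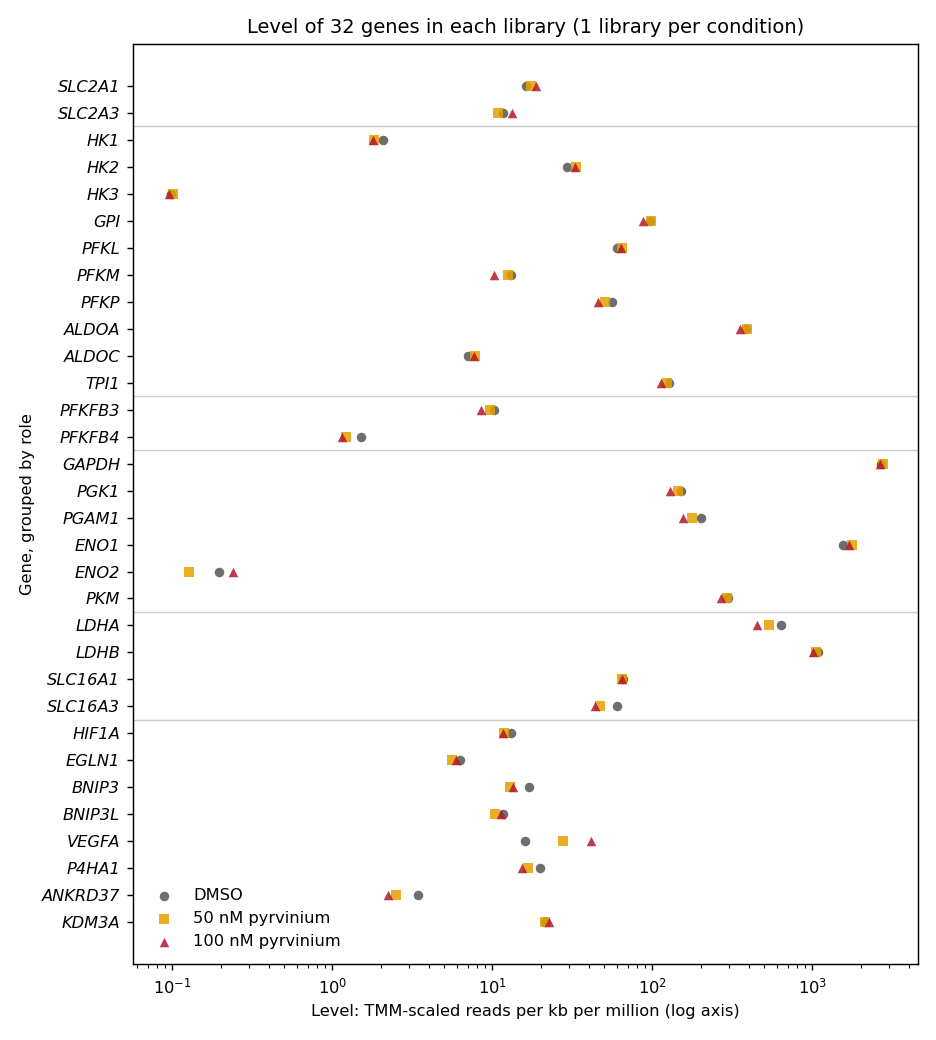
Level of the 32 genes with at least 1 read in any library, on a logarithmic axis in TMM-scaled RPKM, with 1 point for each of the DMSO, 50 nM and 100 nM libraries and gray lines between roles. The points of most genes lie on each other, while VEGFA moves from 16.1 in DMSO to 27.5 at 50 nM and 41.3 at 100 nM.

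Of the 34 genes, 31 passed the filter of at least 10 counts in at least 1 library. HK3, the hexokinase of mature myeloid cells, had 7 counts in each library. PFKFB2 and EGLN3 had 0 counts in all 3 libraries, which allows up to 3 counts in a library by counting error alone. ENO2, the neuronal enolase, passed with 11, 7 and 14 counts in the DMSO, 50 nM and 100 nM libraries, too few to place its ratio. For the 31 genes, counts were compared between libraries, 2 at a time, with an exact binomial test adjusted (Benjamini-Hochberg) over all 12879 genes tested. Such a test speaks of the libraries and not of the conditions. Its intervals hold counting error only. In bulk RNA, a change in the number of cells of a kind and a change in RNA per cell cannot be told apart.

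At 100 nM against DMSO, the glycolytic genes were on the whole slightly lower, the hypoxia genes were mostly lower or level, and VEGFA stood apart from both. At an adjusted p of at most 0.05 with no fold threshold, 7 of the 31 genes were higher, where the background over all genes tested was 21.1%, and 16 were lower, where the background was 22%. At this depth abundant genes pass with small ratios, so the sizes matter more than the counts. At a log2 ratio of at least 0.32 in size, VEGFA was higher (background 10.3%) and LDHA, SLC16A3, P4HA1, PGAM1, PFKM and BNIP3 were lower (background 8.21%). At 1.5-fold (background 4.31% higher and 2.4% lower) and at 2-fold (1.72% and 0.474%), VEGFA alone of the 31 passed. All these passes rest on counting error: when replicates were assumed to vary with a coefficient of 0.1 in the exact test of edgeR, 1 of the 31 passed at 100 nM, VEGFA, and 0 passed at 50 nM or between the doses (LDHA at 100 nM, adjusted p = 0.256). The median log2 ratio (log2 of the scaled counts of the treated over the DMSO library) was -0.13 over the 23 glycolysis genes tested and -0.11 over the 8 hypoxia genes tested, beside -0.0024 over all genes tested.

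At 50 nM against DMSO, the glycolysis median was -0.05 and the hypoxia median -0.17. With no fold threshold 5 of the 31 genes were higher (background 14.3%) and 9 were lower (background 13.9%). At a log2 ratio of at least 0.32 in size, VEGFA was higher (background 4.56%) and BNIP3 and SLC16A3 were lower (background 3.8%). VEGFA passed at 1.5-fold too (background 1.69% higher and 0.885% lower), and at 2-fold (0.699% and 0.256%) 0 of the 31 did. Between the 100 nM and the 50 nM library, with no fold threshold, 2 genes were higher at 100 nM (background 7.69%), VEGFA and SLC2A3, and 13 were lower (background 9.25%). VEGFA was also the gene that passed at a log2 ratio of 0.32 (background 1.82% higher and 1.16% lower) and at 1.5-fold (0.683% and 0.427%), and 0 passed at 2-fold (0.202% and 0.295%). All 13 lower genes were glycolytic. Of the 7 hypoxia genes other than VEGFA 0 passed, which is near the backgrounds of 7.69% and 9.25%. Abundant genes again passed with small ratios. GAPDH passed at a log2 ratio of -0.06 with 83165 counts at 100 nM, while P4HA1, at -0.13 with 1112 counts, did not. Both doses are set against the same DMSO library, so a peculiarity of that library would enter both.

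**Figure D2:**
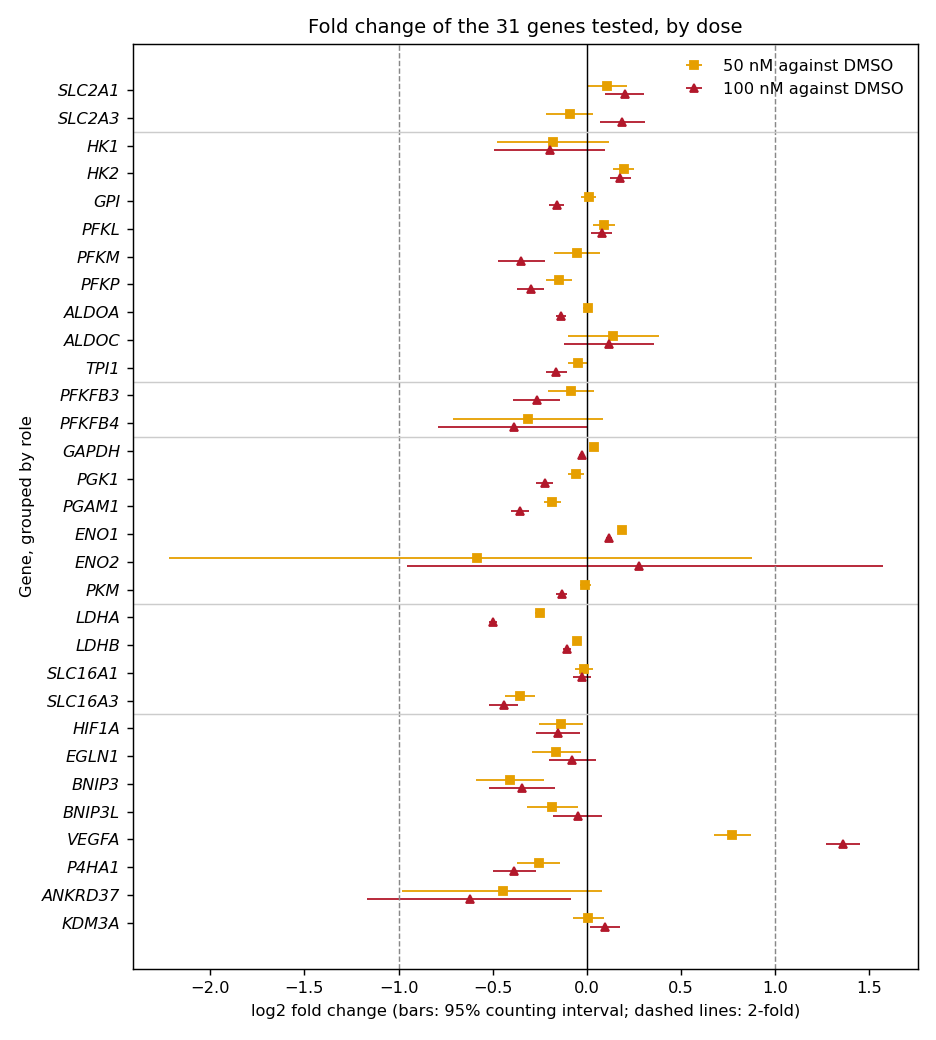
Log2 ratio of the 31 genes tested at 50 nM (squares) and at 100 nM (triangles) against DMSO, grouped by role, with 95% counting intervals as bars and 2-fold as dashed lines. VEGFA lies at 0.77 and 1.36, LDHA at -0.25 and -0.50, and the wide bars of ENO2 and ANKRD37 reflect their low counts.

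Glucose enters these cells through SLC2A1 (GLUT1) and SLC2A3 (GLUT3). SLC2A1 had 1376 counts in DMSO, 1449 at 50 nM and 1646 at 100 nM, a log2 ratio at 100 nM of 0.20 (counting interval 0.10 to 0.31). SLC2A3 had 1060, 972 and 1258 counts, with a log2 ratio of -0.09 at 50 nM (interval -0.22 to 0.04) and 0.19 at 100 nM (0.07 to 0.31). Both transporters passed the test at 100 nM and neither did at 50 nM. Between the 100 nM and 50 nM libraries SLC2A3 was higher at 100 nM by a log2 ratio of 0.28 (0.16 to 0.40), while SLC2A1 did not pass (0.09, -0.01 to 0.20). Per length, SLC2A1 made up 58.2% of the pair in DMSO (95% Wilson interval 56.3 to 60.1). Its share was 61.5% (59.6 to 63.4) at 50 nM and 58.4% (56.6 to 60.2) at 100 nM. SLC2A14, a close copy of SLC2A3 with which reads could be shared, had only 24, 15 and 38 counts.

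Hexokinase traps glucose as glucose 6-phosphate, and HK2 was the main form. HK2 had 4776, 5343 and 5621 counts in the DMSO, 50 nM and 100 nM libraries, with log2 ratios of 0.20 at 50 nM (interval 0.14 to 0.25) and 0.18 at 100 nM (0.12 to 0.23), so that both treated libraries lay above DMSO and level with each other. HK1 had 205, 177 and 186 counts and did not pass the test. The isomerase GPI, which makes fructose 6-phosphate, had 10049, 9886 and 9365 counts, a log2 ratio of 0.01 at 50 nM and -0.16 at 100 nM (interval -0.20 to -0.12).

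Phosphofructokinase commits the sugar to glycolysis, and its 3 subunit genes parted. PFKL, the liver form, had 4736, 4937 and 5206 counts, a log2 ratio at 100 nM of 0.08 (interval 0.02 to 0.14). PFKM, the muscle form, had 1157, 1091 and 946 counts, and at 100 nM it was 1.27-fold lower, a log2 ratio of -0.35 (-0.47 to -0.22). PFKP, the platelet form, had 3387, 2988 and 2866 counts, a log2 ratio of -0.30 (-0.37 to -0.23). The interval of PFKL did not meet those of PFKM and PFKP, a contrast that no scaling of the libraries can alter. Per length, PFKL made up 51.8% of PFKL and PFKP in DMSO (Wilson interval 50.7 to 52.9), 56.0% (54.8 to 57.1) at 50 nM and 58.3% (57.2 to 59.4) at 100 nM.

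PFKFB enzymes make and break fructose-2,6-bisphosphate, the activator of phosphofructokinase. PFKFB3, whose kinase activity prevails, had 1106, 1020 and 957 counts, a log2 ratio at 100 nM of -0.27 (interval -0.39 to -0.14). PFKFB4, well known as hypoxia-induced, had 122, 96 and 97 counts and a log2 ratio of -0.39 whose interval, -0.79 to 0.01, included no change. Neither PFKFB gene passed the test at 50 nM. Aldolase ALDOA had 24979, 24479 and 23673 counts, a log2 ratio of 0.01 at 50 nM and -0.13 at 100 nM (-0.16 to -0.11). ALDOC, the minor aldolase, had 271, 292 and 306 counts and did not pass. TPI1, which interconverts the triose phosphates, had 5461, 5167 and 5083 counts, a log2 ratio of -0.16 at 100 nM (-0.22 to -0.11).

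In the lower, energy-yielding steps the sizes were as small, and at 100 nM ENO1 was the gene that passed on the higher side. GAPDH, often taken as a reference gene, had 81382, 81547 and 83165 counts, a log2 ratio of 0.04 at 50 nM and -0.03 at 100 nM. PGK1, which makes the first ATP of the pathway, had 8475, 7959 and 7561 counts, a log2 ratio at 100 nM of -0.22 (interval -0.27 to -0.18). PGAM1, the next mutase, had 7971, 6863 and 6480 counts and was 1.28-fold lower at 100 nM, a log2 ratio of -0.36 (-0.40 to -0.31). Its near-identical copy PGAM4 was also lower, with 500, 412 and 366 counts, and how the counting shared reads between them is uncertain. ENO1 had 65261, 72622 and 73640 counts, and its log2 ratios of 0.19 at 50 nM (0.17 to 0.20) and 0.12 at 100 nM (0.10 to 0.13) lay above 0. An unnamed gene (Entrez 100505990) with 21 to 39 counts overlaps 426 bases of ENO1 on the opposite strand. PKM, pyruvate kinase, had 19426, 18861 and 18446 counts, a log2 ratio of -0.01 at 50 nM and -0.13 at 100 nM (-0.16 to -0.10).

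Among the best expressed gene of each step, HK2, PFKL and ENO1 were thus higher at 100 nM, and GPI, ALDOA, TPI1, GAPDH, PGK1, PGAM1 and PKM were lower, by a log2 ratio of -0.36 at most. The enzymes from hexokinase to pyruvate kinase, 16 genes in all, took 1.03% of all counts in DMSO, 1.07% at 50 nM and 1.01% at 100 nM. With transport, PFKFB and lactate genes added, the 25 glycolysis genes took 1.42% (Wilson interval 1.42 to 1.43), 1.43% (1.42 to 1.43) and 1.34% (1.34 to 1.35). GAPDH and ENO1 supply much of these sums.

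The lactate end of the pathway held the larger differences. LDHA, the subunit that favours lactate production (Entrez 3939, chromosome 11 of hg19, 18415936 to 18429765, plus strand), had 37727 counts in DMSO, 30972 at 50 nM and 27796 at 100 nM. Its level was lower in the 50 nM library by a log2 ratio of -0.25 (interval -0.27 to -0.23) and lower still at 100 nM, by -0.50 (-0.52 to -0.48), which is 1.41-fold. LDHB, the subunit that favours pyruvate, had 40462, 38147 and 39130 counts, a log2 ratio of -0.05 at 50 nM and -0.11 at 100 nM (-0.13 to -0.09). Per length, LDHA made up 36.9% of the pair in DMSO (Wilson interval 36.6 to 37.2), 33.7% (33.4 to 34.1) at 50 nM and 30.8% (30.5 to 31.1) at 100 nM. The 3 intervals did not meet, and this share does not depend on the library scaling.

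The lactate exporters parted as well. SLC16A3 (MCT4), the transporter of strongly glycolytic and hypoxic cells (Entrez 9123, chromosome 17 of hg19, 80186293 to 80197369), had 3100, 2368 and 2377 counts. It was lower in both treated libraries, by a log2 ratio of -0.35 at 50 nM (interval -0.43 to -0.28) and -0.44 at 100 nM (-0.52 to -0.36). Between the 100 nM and 50 nM libraries SLC16A3, unlike LDHA, did not pass (log2 ratio -0.09, adjusted p = 0.165 in the exact binomial test). SLC16A1 (MCT1), which carries lactate in either direction, had 7112, 6870 and 7270 counts and did not pass the test at either dose, with a log2 ratio at 100 nM of -0.03 (-0.07 to 0.02). Per length, SLC16A1 made up 52.4% of the pair in DMSO (Wilson interval 51.3 to 53.4), 58.2% (57.1 to 59.3) at 50 nM and 59.5% (58.3 to 60.6) at 100 nM. The chaperone of both transporters, BSG, had 9933, 9552 and 10619 counts and did not pass.

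**Figure D3:**
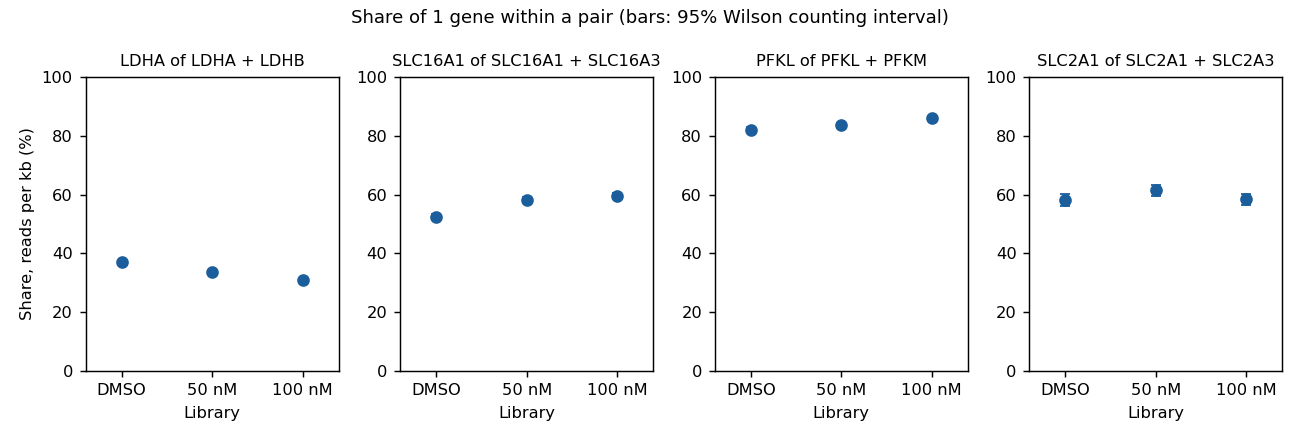
Share of the gene named first in 4 gene pairs, in percent of the reads per kilobase of the pair, in the DMSO, 50 nM and 100 nM libraries, with 95% Wilson counting intervals as bars (within the symbol where unseen). The LDHA share goes from 36.9% to 30.8% and the SLC16A1 share from 52.4% to 59.5%. The SLC2A1 share is 58.2% in DMSO, 61.5% at 50 nM and 58.4% at 100 nM.

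HIF1A and its regulators showed small differences. HIF1A had 1221, 1085 and 1143 counts in the DMSO, 50 nM and 100 nM libraries, a log2 ratio at 100 nM of -0.15 (interval -0.27 to -0.03) that passed the test. EGLN1, the main prolyl hydroxylase, had 1034, 903 and 1021 counts and passed at neither dose, although at 50 nM it did with DESeq2 size factors (adjusted p = 0.0487). Of 12 further HIF subunits and regulators, 9 were tested, and at 100 nM 0 were higher and 4 were lower (backgrounds 21.1% and 22%). These were EGLN2 (-0.22), the elongins ELOC (-0.24) and ELOB (-0.26), and the cullin CUL2 (-0.17), the last 3 of which form the VHL ubiquitin ligase together with VHL and RBX1. VHL itself (log2 ratio 0.03) and the HIF partner ARNT (-0.07) did not pass. EPAS1, the alternative HIF subunit, had 0, 4 and 2 counts.

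The genes that hypoxia commonly induces were mostly lower or level. BNIP3, a mitophagy receptor (Entrez 664, chromosome 10 of hg19, 133781204 to 133795435), had 606 counts in DMSO, 446 at 50 nM and 497 at 100 nM. Both treated libraries lay below DMSO, with log2 ratios of -0.41 at 50 nM (interval -0.59 to -0.23) and -0.34 at 100 nM (-0.52 to -0.17). Its relative BNIP3L had 951, 818 and 957 counts, a log2 ratio of -0.18 at 50 nM, which passed the test, and -0.05 at 100 nM, which did not. P4HA1, a collagen prolyl hydroxylase (Entrez 5033, chromosome 10 from 74766975 to 74856732), had 1396, 1143 and 1112 counts, with log2 ratios of -0.25 (-0.37 to -0.14) and -0.39 (-0.50 to -0.27). Both treated libraries were again below DMSO.

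ANKRD37, a small ankyrin repeat gene used as a hypoxia marker, had 74, 53 and 50 counts. Its log2 ratio at 100 nM was -0.62 (interval -1.17 to -0.09), and at an adjusted p of 0.0509 in the exact binomial test it did not pass, while it did when 10 counts were required in every library (adjusted p = 0.0489). Of its 934 exonic bases, 424 overlap UFSP2 on the opposite strand (391, 335 and 413 counts), so part of its reads may belong there if strand was not used. KDM3A, a histone demethylase, had 2420, 2378 and 2690 counts, a log2 ratio at 100 nM of 0.10 (0.02 to 0.18), and was the only hypoxia gene other than VEGFA to pass on the higher side. With no filter on low counts KDM3A did not pass (adjusted p = 0.0578 in the exact binomial test). Without VEGFA, the 8 other hypoxia genes together took 0.0332% of all counts in DMSO (Wilson interval 0.0325 to 0.0340), 0.0301% (0.0294 to 0.0308) at 50 nM and 0.0310% (0.0303 to 0.0317) at 100 nM.

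VEGFA, the growth factor for blood vessels (Entrez 7422, chromosome 6 of hg19, 43737946 to 43754224, plus strand), went the other way. It had 1363 counts in DMSO, 2276 at 50 nM and 3643 at 100 nM, so that each library lay above the one of the next lower dose. Its level was 1.71-fold that of DMSO at 50 nM, a log2 ratio of 0.77 (interval 0.68 to 0.87), and 2.57-fold at 100 nM, a log2 ratio of 1.36 (1.27 to 1.45). Between the treated libraries it was higher at 100 nM by a log2 ratio of 0.59 (0.51 to 0.66). If replicates are assumed to vary with a coefficient of 0.1, the exact test of edgeR still called VEGFA at 100 nM, but it did not pass at 50 nM (adjusted p = 0.0763) or between the doses (adjusted p = 1). With 0.2 the call at 100 nM was lost too (edgeR, adjusted p = 0.372). VEGFA is known to respond to ATF4 as well as to HIF, and whether either acted here was not tested.

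The contrast between VEGFA and the other hypoxia genes was set beside 37 other genes reported to respond to HIF, of which 25 were tested. At 100 nM, with no fold threshold, 8 of the 25 were higher and 7 were lower (backgrounds 21.1% and 22%, as above), and their median log2 ratio was -0.07. DDIT4 and STC2 were called at 2-fold, both higher (background 1.72% higher and 0.474% lower). DDIT4, an inhibitor of mTORC1, had 2335, 4313 and 7879 counts, a log2 ratio of 1.70 at 100 nM (interval 1.63 to 1.76). STC2, a secreted glycoprotein, had 634, 1225 and 1897 counts, a log2 ratio of 1.52 (1.39 to 1.66). Both, like VEGFA, are known to respond to ATF4 as well as to HIF, and what raised their counts here was not tested. On the lower side JMJD6, a hydroxylase of lysine residues, had 602, 410 and 416 counts (log2 ratio -0.59, interval -0.77 to -0.41), and AK4, a mitochondrial adenylate kinase, had 131, 106 and 87 (-0.64, -1.06 to -0.25). CA9, a common hypoxia marker, had 1, 0 and 1 counts, and ANGPTL4, CA12, LOX, P4HA2 and PLOD2 had 0 in every library. NDRG1, another such marker, had a log2 ratio of 0.12 (0.05 to 0.19). PDK1, the kinase that closes the mitochondrial entry of pyruvate under hypoxia, was in another list and not among the 37. Its log2 ratio was -0.29 (-0.46 to -0.12).

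Of 16 further glycolytic genes 8 were tested, and at 100 nM 1 was higher, ENO3 (background 21.1%), and 4 were lower, BPGM, PGAM4, PGM1 and PGM2 (background 22%). The best expressed were ADPGK, a glucokinase that uses ADP, at 54.4 RPKM in DMSO, and PGM2, a sugar phosphate mutase, at 46.6 RPKM. ENO3, the muscle enolase, had 69, 68 and 109 counts, a log2 ratio of 0.60 (interval 0.15 to 1.06). BPGM, which makes the bisphosphoglycerate that loosens oxygen from hemoglobin, had 398, 296 and 315 counts, a log2 ratio of -0.39 (-0.61 to -0.18). Of 11 other hexose transporters 8 were tested and 1 was called at 2-fold (background 1.72% higher and 0.474% lower), SLC2A11, a fructose and glucose carrier, with 21, 50 and 65 counts and a log2 ratio of 1.55 (0.84 to 2.36). Of 6 genes of gluconeogenesis 2 were tested, and PCK2, the mitochondrial enzyme that makes phosphoenolpyruvate and a known ATF4 target, had 2085, 3426 and 4997 counts, a log2 ratio of 1.20 (1.13 to 1.28). PCK1, G6PC1 and FBP2 had 0 counts in every library and FBP1 had 2, 0 and 3. G6PC3, the widely expressed glucose 6-phosphatase, had 786, 827 and 932 counts, a log2 ratio of 0.19 (0.05 to 0.33) that passed the test.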

How the data were processed

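Paired reads of poly(A) RNA from 3 libraries, made with a strand-specific kit, were aligned to hg19 with Rsubread by the authors. The deposited values are raw counts of reads per Entrez gene over merged exons. Tool versions and whether strand entered the counting are not given in the sources used here. The authors' own EBSeq comparisons (posterior probabilities, fold changes and condition means), which fill the remaining table, were not used.

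Symbols came from RefSeq by Entrez identifier. TMM factors from edgeR 4.0.16 in R 4.3.3 scaled the libraries over the 12879 genes that reached 10 counts in at least 1 of them. Each gene's counts in a pair of libraries were tested with an exact, two-sided binomial test whose expected share was set by the scaled sizes (scipy 1.17.1), and p was Benjamini-Hochberg adjusted over those genes. Passing meant an adjusted p no larger than 0.05, and a call also needed a 2-fold difference. Log2 ratios carry 0.5 added counts in each library and a 95% Clopper-Pearson interval. Wilson intervals go with shares. Intervals, and the limit of 3 counts for a count of 0, cover counting error only. The procedure was tested on simulated data.

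All 34 genes are named. Of 109 genes in 9 other lists, written from general knowledge, the rule names those that passed, differed 1.5-fold or more at 100 nM and reached 50 counts in the higher library. Any other gene was picked with its values in view. The members and lists were chosen with earlier results of these data known. Tried as alternatives were scaling by DESeq2 1.42.0, by total counts or by TMM leaving out genes of the mitochondrial genome, other count filters, 5 added counts, lower fold thresholds, and an assumed variation between replicates.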

Additional observations from a re-analysis of the deposited data

How the results depend on the processing

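No paired analysis was possible because each condition has 1 library, and for the same reason no library could be left out. Scaling by DESeq2, by total counts or by TMM leaving out genes of the mitochondrial genome, no count filter and 5 added counts changed no 2-fold call and turned no direction among the named genes, and the scalings moved a comparison by at most 0.0050 on the log2 scale. Passes near the threshold did shift. KDM3A at 100 nM lost its pass with no filter, PGK1 at 50 nM with no filter or without mitochondrial genes, EGLN1 at 50 nM gained one with DESeq2 or total counts, and ANKRD37 at 100 nM with 10 counts in every library. At least 10 counts in every library left 73 genes called at 50 nM in place of 123, and 24 between the doses in place of 64, fewer genes being tested. Calls among all genes at 1.5-fold and at a log2 ratio of 0.32 were 864 and 2383 at 100 nM (283 at 2-fold), 332 and 1077 at 50 nM, and 143 and 385 between the doses. Of the 34 genes, 7 were called at 100 nM with a log2 ratio of 0.32 in place of 1, at 50 nM 1 with 1.5-fold and 3 with 0.32 in place of 0, and between the doses 1 (VEGFA) with either. Assuming a variation of 0.1 between replicates, the exact test of edgeR called 137 genes at 100 nM, 27 at 50 nM and 15 between the doses. With 0.2 it called 12, 0 and 4, and 0 of the 34 genes at 100 nM. Passes of the 31 genes tested went from 23 to 1 at 100 nM, from 14 to 0 at 50 nM and from 15 to 0 between the doses at 0.1, so every pass and the call of VEGFA rest on the spread assumed between replicates.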

Other observations

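Branches off glycolysis were measured in the same libraries. In the pentose phosphate pathway, which supplies NADPH and ribose, PGLS and PGD of the oxidative arm were higher at 100 nM, and the genes of the other arm examined were lower or level. PGLS had 1216, 1397 and 1659 counts in the DMSO, 50 nM and 100 nM libraries, a log2 ratio at 100 nM of 0.39 (counting interval 0.28 to 0.50). PGD had 6960, 7599 and 8305 counts (0.20, 0.15 to 0.24). Both passed the exact binomial test. RPIA (-0.15), RPE (-0.18) and TALDO1 (-0.12) passed on the lower side, and TKT, at 0.00, did not pass. TIGAR, a phosphatase that steers sugar toward this pathway, was lower as well (-0.18).

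Among 7 glycogen genes, the phosphorylases that release glucose from glycogen were higher at 100 nM, PYGB by a log2 ratio of 0.42 (interval 0.35 to 0.49) and PYGL by 0.17 (0.12 to 0.22). Of the genes that build glycogen, GYS1 (-0.23) and UGP2 (-0.23) were lower, and GYG1 and GBE1 did not pass. At the entry of pyruvate into mitochondria, the carrier subunit MPC2 was lower (-0.20) and MPC1 (0.04) did not pass. The phosphatase PDP2, which reopens pyruvate dehydrogenase, was higher (0.24, interval 0.12 to 0.36), and its relative PDP1 did not pass (0.07). EMB, a partner of monocarboxylate transporters, had 16836, 18323 and 20382 counts (0.22, 0.19 to 0.25). These genes were picked with their values in view, none reached 1.5-fold, and each value compares single libraries.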
